A study of Mus musculus with 7 samples.

Results

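Within the tumor cells of 7 control mammary tumors, the cells that scored highest for Lalba, Lgals7, Xbp1 and Aldoc together were described. The score also chose them for few UMIs of Slpi, Spp1, Cp, Saa1 and Chil1. Lalba encodes alpha-lactalbumin, the milk protein that lets the Golgi enzyme B4galt1 make lactose. The score of a cell was the log2 ratio of its UMIs (unique molecular identifiers, each counting 1 captured mRNA molecule) of Lalba, Lgals7, Xbp1 and Aldoc to its UMIs of Slpi, Spp1, Cp, Saa1 and Chil1, with 1 added to each sum. Cells were eligible with 200 to 6000 genes, under 3000 UMIs, at least 2 UMIs over Epcam, Krt8 and Krt18, at least 1 UMI of the PYMT transgene, no fewer PYMT UMIs than the sum of Fgb, Fgg, Ptn, Prlr and Cited1, and at most 1 UMI over Mki67, Top2a, Birc5 and Ube2c. The 2558 eligible cells of 15047 were ranked within each tumor and cut into 3 groups of about equal size. The 851 score-high cells (5.66% of all cells) are set against 856 middle-score cells, while 851 low-score cells are given for orientation. The 6253 non-epithelial cells, with no UMI of Epcam, Krt8 or Krt18, are given as a reference for epithelial genes, while many other genes were as high or higher in them.

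The study asked what systemic loss of hexokinase 2 does to breast cancer metastasis, and only its control tumors were analysed here. They came from 7 MMTV-PyMT; HK2 f/f mice on a C57BL/6 background, which carry floxed HK2 alleles, no Cre transgene in their source label and the genotype entry Wild type. As the methods read, control mice were given tamoxifen like the deleted mice once a tumor was palpable. The labels place sampling 3 months after a palpable tumor, and the methods near a size endpoint. The MMTV promoter drives the polyoma middle T oncogene (PYMT in the matrices) in mammary epithelium, and its activity depends on hormones, so PYMT is a marker of the transgenic lineage and not of every epithelial cell. Tumors were dissociated with collagenase, red cells were lysed and the suspension was run through Drop-seq, which traps single cells with barcoded beads. Each mouse gave 1 library. The titles form a CB series (4 mice, numbered 1 to 4) and a WT series (3 mice, numbered 5, 7 and 8), and what separates these series is not given in the sources used here.

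Secretory alveolar cells of the mammary gland make milk proteins (caseins, Wap, alpha-lactalbumin) under prolactin, which acts through STAT5, together with lactose and milk fat. Xbp1 is the transcription factor that expands the secretory apparatus in such cells. Aldoc is an aldolase of glycolysis, and Lgals7 encodes a galectin of stratified epithelia. The genes against which they were scored encode secreted factors of defence and of the acute phase (Slpi, Saa1, Chil1), the copper oxidase ceruloplasmin (Cp) and osteopontin (Spp1).

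Lalba was among the genes that chose the cells. Wap and the Scgb1b27 and Scgb2b27 pair were called between the groups over 7 mice, and Csn2 was not. The start regions of these genes are given first. Each is the 250 bases before a RefSeq start (build GRCm38.p6), 5′ to 3′ on the strand of the gene. Capitals mark the letters TTCNNNGAA (the GAS form bound by STAT proteins, the same on both strands) and ACGTG or GCGTG on either strand (the core of the hypoxia response element). Lalba lies at chr15:98482684-98482933 (minus strand), Wap at chr11:6638650-6638899 (minus), Csn2 at chr5:87699426-87699675 (minus), Scgb1b27 at chr7:34021231-34021480 (plus) and Scgb2b27 at chr7:34013943-34014192 (minus).
Lalba: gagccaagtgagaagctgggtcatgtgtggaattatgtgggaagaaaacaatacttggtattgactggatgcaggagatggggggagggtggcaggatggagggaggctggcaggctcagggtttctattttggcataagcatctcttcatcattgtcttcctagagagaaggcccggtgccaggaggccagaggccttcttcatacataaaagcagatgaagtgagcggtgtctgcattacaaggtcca
Wap: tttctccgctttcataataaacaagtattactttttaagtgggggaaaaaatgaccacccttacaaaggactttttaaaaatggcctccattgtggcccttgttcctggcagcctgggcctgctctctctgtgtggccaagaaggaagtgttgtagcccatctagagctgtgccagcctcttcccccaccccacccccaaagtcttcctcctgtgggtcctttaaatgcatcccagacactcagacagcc
Csn2: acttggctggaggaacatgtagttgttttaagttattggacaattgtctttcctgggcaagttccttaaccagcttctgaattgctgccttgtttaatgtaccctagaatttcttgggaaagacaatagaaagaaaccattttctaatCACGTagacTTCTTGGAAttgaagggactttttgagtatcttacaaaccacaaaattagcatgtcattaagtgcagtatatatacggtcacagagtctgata
Scgb1b27: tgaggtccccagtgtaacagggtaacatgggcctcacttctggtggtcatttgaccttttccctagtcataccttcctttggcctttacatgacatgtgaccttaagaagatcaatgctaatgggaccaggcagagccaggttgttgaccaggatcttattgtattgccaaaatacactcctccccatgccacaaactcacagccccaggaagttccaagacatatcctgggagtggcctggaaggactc
Scgb2b27: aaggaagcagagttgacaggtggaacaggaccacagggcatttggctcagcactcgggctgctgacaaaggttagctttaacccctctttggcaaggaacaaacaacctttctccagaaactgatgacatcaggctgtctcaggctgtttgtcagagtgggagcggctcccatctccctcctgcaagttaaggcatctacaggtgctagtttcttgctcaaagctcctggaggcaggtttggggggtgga
The Csn2 window holds 1 GAS match and 1 match of the hypoxia core, and the other windows hold neither. Scgb1b27 and Scgb2b27 point away from each other with 7539 bases between their starts. Of all 32851 mouse windows of this length, 7.02% hold a GAS match and 38.6% a match of the hypoxia core. Among the 10 genes that rose most and the 10 that fell most, 8 each had a window, none with a GAS match and 5 of 8 in each direction with a hypoxia core. The ERSE and the UPRE (TGACGTGG), both sites of the unfolded protein response, had no match in those windows either, against 0.113% and 0.563% of all windows.

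A mouse contributed 46 to 215 score-high cells, with a median of 85, and their summed UMIs were 45277 to 223937. The median score-high cell of a mouse held 740.5 to 1231.5 UMIs, against 676 to 962 in the middle-score cells, and was the deeper in 6 of 7 mice. At such a depth most genes of a cell have no UMI, so levels are given as CPM, the UMIs of a gene per 1e6 UMIs summed over the cells of a mouse. Across all pairs of libraries 5 cell barcodes were shared, none of them by score-high cells. No doublet caller was run, and doublets were left to the limits on genes and UMIs.

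The scores themselves were uneven across mice. The lowest score of a score-high cell was 1 in mice 1 and 5, 0.89 in mouse 3, 0 in mice 2, 4 and 8, and -1.32 in mouse 7, while the highest score just outside was the same value in every mouse but mouse 3, where it was 0.87. Between 1 and 72 cells of a mouse sat exactly on the edge, with 1 to 14 of them placed inside by the order of their barcodes. In mouse 7, whose tumor cells carried far more Spp1 and Cp than the others, cells with a score below 0 therefore count as score-high. Of the 851 cells, 23 had no UMI of any scoring gene in the numerator (17 of them in mouse 7), 237 had UMIs of 1 of the 4 genes, 308 of 2, 209 of 3 and 74 of all 4.

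Lalba, Xbp1, Aldoc and Lgals7 were selected on, so their levels are a description without a test. Lalba stood at 1612 to 6745 CPM in the score-high cells (median 2802) and at 189 to 1553 CPM in the middle-score cells (median 555). The 2 ranges did not overlap, and mouse 1 was far above the others. A Lalba UMI was found in 430 of 851 score-high cells (50.5%), 26.1% of middle-score cells, 14.5% of low-score cells and 2.77% of non-epithelial cells, whose median cell held 400 to 517 UMIs per mouse. After every cell was thinned to 300 UMIs, leaving out 21, 39, 23 and 1016 shallower cells, these shares were 38.6%, 12.4%, 5.8% and 1.78%. The share in non-epithelial cells is the background against which the others are read, and its source was not tested.

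Xbp1, with a UMI in 66.0% of the score-high cells, was at 840 to 1831 CPM (median 1296) against 445 to 853 CPM in the middle-score cells (median 626). Aldoc was at 817 to 2098 CPM (median 1250) against 417 to 962 CPM (median 672). Both were higher in 7 of 7 mice with slightly overlapping ranges. Lgals7 was at 177 to 748 CPM against 247 to 696 CPM and was the one numerator gene lower in a mouse, mouse 8. Lalba alone gave the most UMIs of the 4 genes in 301 cells, Xbp1 in 167, Aldoc in 167 and Lgals7 in 71, and the remaining 145 were tied or had none. About equal numbers of score-high cells thus qualified with and without a Lalba UMI.

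PYMT was part of the gate and not of the score. It stood at 1894 to 7863 CPM in the score-high cells (median 2675), 1488 to 5293 CPM in the middle-score cells and 127 to 325 CPM in non-epithelial cells. Score-high cells were above middle-score cells in 7 of 7 mice, in mouse 4 by little (2385 against 2373 CPM), with ranges that overlapped widely. The denominator genes were selected on too, and their levels are given without a test. Median levels in score-high against middle-score cells were 32.7 against 225 CPM for Slpi, 66.3 against 336 CPM for Spp1 and 569 against 1658 CPM for Cp. For Saa1 they were 145 against 490 CPM and for Chil1 280 against 544 CPM. Saa1 was lower in 6 of 7 mice and each of the others in 7 of 7. Spp1 in the score-high cells of mouse 7 was 1084 CPM, against 0 to 89.5 CPM in the other 6 mice. Cp, also in the denominator, was 2253 CPM in them against 272 to 873 CPM in the other mice. With both genes in the denominator, the scores of these cells were low although their Lalba (3317 CPM) was the second highest of the 7 mice.

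**Figure D1:**
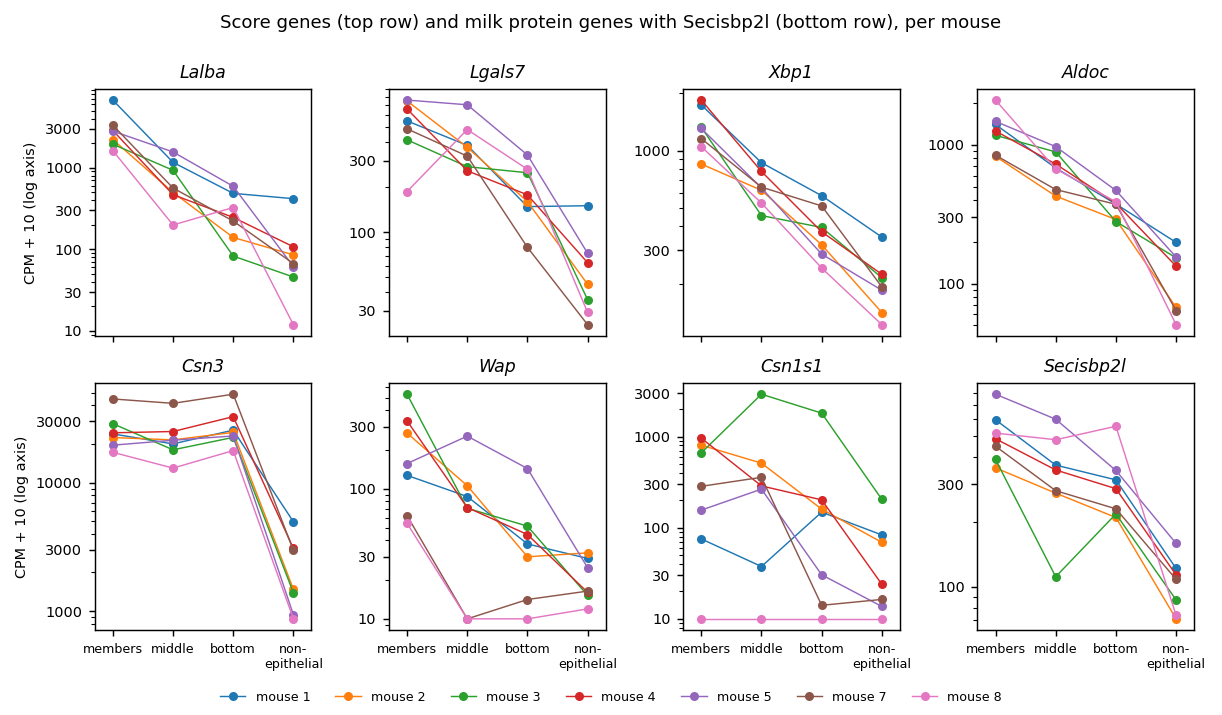
Level of each gene (CPM + 10, log axis) in the score-high ("members"), middle-score, low-score and non-epithelial cells, 1 line per mouse. The top row holds the 4 genes of the numerator, which chose the cells. In the bottom row Csn3 is lower in middle-score than in low-score cells in 7 of 7 mice and higher in score-high than in middle-score cells in 5 of 7. Its low-score level is above the score-high level in every mouse but mouse 3. Wap is higher in score-high than in middle-score cells in 6 of 7 mice and Secisbp2l in 7 of 7.

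The label of these cells names a milk-secretory state, and the milk genes outside the score bore that out only in part. Over 18 tested genes of milk proteins and secretion, 3 rose in the score-high cells (Wap, Folr1 and Pigr), 1 fell (Mfge8), and the median log2 fold change was 0.18, against -0.02 over all 2877 genes tested. Across all genes, edgeR called 35 higher (1.22% of those tested) and 36 lower (1.25%) at an adjusted p under 0.05, and 337 had an unadjusted p under 0.05. The cells are therefore called score-high here, and not secretory.

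Wap encodes whey acidic protein, a marker of late alveolar differentiation. It stood at 44.2 to 522 CPM in the score-high cells (median 146) and at 0 to 243 CPM in the middle-score cells (median 61.6). It was higher in 6 of 7 mice and lower in mouse 5, where the middle-score cells had their highest level, and the ranges overlapped. The log2 fold change was 1.48 (SE 0.31, edgeR adjusted p = 0.0047), but only 55 score-high cells held any Wap UMI, with 46 of their 197 UMIs in 1 cell. The call was lost without mouse 3 (1.18, edgeR adjusted p = 0.0601) or mouse 4 (1.20, adjusted p = 0.0802), and the 3 mice of the WT series alone gave 0.48 (adjusted p = 0.975) against 1.87 in the CB series (adjusted p = 8.93e-09).

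Csn3, kappa-casein, was the most abundant casein. Its level was 17227 to 44834 CPM in the score-high cells (median 23949) and 12972 to 41444 CPM in the middle-score cells (median 21388). These ranges overlapped almost wholly, with mouse 7 high in both groups. The difference between score-high and middle-score cells did not pass the test (log2 fold change 0.16, SE 0.09, edgeR adjusted p = 0.532). The low-score cells, at 17767 to 48808 CPM (median 24608), were above the middle-score cells in all 7 mice. They were also above the score-high cells in every mouse but mouse 3. Csn3 UMIs were in 91.8% of score-high cells and in 31.5% of non-epithelial cells. A PYMT UMI was in 7.24% of these non-epithelial cells, and whether their Csn3 came from free RNA, doublets or shallow tumor cells was not tested.

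The other caseins came from few cells and few mice. Csn1s1 was at 0 to 951 CPM in score-high cells and 0 to 2905 CPM in middle-score cells, with mouse 3 the high one in the latter. Csn2 had 117 UMIs in 7 score-high cells, with 87 in 1 cell, and was listed at 1030 CPM in mouse 2, 112 CPM in mouse 4 and 0 elsewhere. Csn1s2a had 46 UMIs in 7 cells, 37 of them in 1 cell, mostly in mouse 2 (470 CPM). None of the 3 passed the test over 7 mice (edgeR adjusted p = 0.942, 0.429 and 0.756), Csn2 did in the CB series alone (1.31, adjusted p = 0.00794), and Csn1s2b, with 7 UMIs, was too low to be tested.

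Folr1, the milk folate-binding protein, was at 235 to 442 CPM in score-high cells (median 364) and 142 to 325 CPM in middle-score cells (median 194). It was higher in 6 of 7 mice, all but mouse 5 (log2 fold change 0.73, SE 0.16, edgeR adjusted p = 0.00925). Pigr, the receptor that carries immunoglobulin A into milk, gave 0.57 (SE 0.16, edgeR adjusted p = 0.04), also in 6 of 7 mice. Leaving out mouse 4 (0.62, edgeR adjusted p = 0.1) or mouse 7 (0.71, adjusted p = 0.0542) ended the call of Folr1, and that of Pigr was lost without any one of mice 1, 2, 3, 4, 7 or 8 (0.50 to 0.68, adjusted p = 0.0543 to 0.199).

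Mfge8 encodes lactadherin, a protein of milk fat globules that also marks dying cells for uptake. It fell: 177 to 741 CPM in score-high cells (median 402) against 495 to 1312 CPM in middle-score cells (median 698). Score-high cells were the lower in 7 of 7 mice, and the ranges overlapped only through mouse 2 and mouse 4. The log2 fold change was -1.01 (SE 0.14, edgeR adjusted p = 5.67e-06), with -0.86 in the CB and -1.34 in the WT series.

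Secisbp2l is the one marker of the label that the score did not use. The label and its markers were chosen with earlier results of these data known, so the test of this marker is no separate check. Secisbp2l encodes a relative of the SECIS-binding protein that inserts selenocysteine, and lies on chr2:125736986-125782870. It was at 347 to 776 CPM in score-high cells (median 478), 101.2 to 591 CPM in middle-score cells (median 339) and 60.9 to 149 CPM in non-epithelial cells. Score-high cells were above middle-score cells in 7 of 7 mice although the ranges overlapped, with mouse 5 the highest in both and mouse 3 the lowest of the middle-score cells. The log2 fold change was 0.60 (SE 0.14, edgeR adjusted p = 0.0143). It was no longer called without mouse 1 (0.57, edgeR adjusted p = 0.0528) or mouse 7 (0.59, adjusted p = 0.0731), was 0.71 in the CB (adjusted p = 0.0333) and 0.44 in the WT series (adjusted p = 0.665). Against non-epithelial cells it was 2.12 higher on the log2 scale (SE 0.16, edgeR adjusted p = 3.28e-11). Of 12 tested genes of selenoprotein synthesis none was called, with a median of 0.03.

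Among called genes moved the same way in at least 6 of 7 mice, those that rose most were 2 androgen-binding protein genes and a secreted carbonic anhydrase. Scgb1b27 and Scgb2b27 are secretoglobins, whose alpha and beta chains pair in mouse saliva and tear fluid. Car6 encodes the carbonic anhydrase of saliva and milk. Their family is large and nearly identical in sequence, so UMIs may be split between copies: the other Scgb1b and Scgb2b genes held 118 UMIs in score-high cells, against 2196 of Scgb1b27 and 3808 of Scgb2b27.

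Scgb2b27 was at 649 to 14364 CPM in score-high cells (median 2811), 93.6 to 4220 CPM in middle-score cells (median 757) and 35.0 to 276 CPM in non-epithelial cells. It was higher in 7 of 7 mice over the middle-score cells, with overlapping ranges and mouse 5 the highest of both. The log2 fold change was 1.98 (SE 0.22, edgeR adjusted p = 1.94e-07), 1.69 in the CB and 2.30 in the WT series.

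Car6 was at 159 to 8752 CPM (median 506) against 20.7 to 3489 CPM (median 81.0), higher in 7 of 7 mice (log2 fold change 2.23, SE 0.25, edgeR adjusted p = 1.56e-07). Scgb1b27 was more restricted. It was at 0 CPM in mouse 2 in both groups and at 4.66, 228, 1447, 12275, 2201 and 883 CPM in the score-high cells of mice 1, 3, 4, 5, 7 and 8, against 0, 30.4, 8.81, 2678, 5.18 and 142 CPM. It was higher in 6 of 7 mice (log2 fold change 3.74, SE 0.37, edgeR adjusted p = 2.69e-08). Without mouse 5 the value was 5.81 (edgeR adjusted p = 5.44e-18) and without mouse 7 it was 3.14 (adjusted p = 3.2e-07). In the CB series the middle-score cells held 5 UMIs, against 346 in the score-high cells.

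These UMIs sat in few cells. Cells with 10 or more UMIs over the 3 genes, a limit chosen after the values were seen, numbered 73 of 851 score-high cells (8.58%), 25 of 856 middle-score cells, 4 of 851 low-score cells and 7 of 6253 non-epithelial cells (0.112%). Per mouse they made up 3.75%, 1.18%, 9.52%, 10.2%, 21.7%, 6.74% and 13% of the score-high cells of mice 1, 2, 3, 4, 5, 7 and 8, so every tumor had at least 1. In the middle-score cells the share was the same in mouse 2 and lower in every other mouse, up to 14.5% in mouse 5. The limit is a count of UMIs, and the median such score-high cell was deeper than the other score-high cells in all mice but 5 and 7. The 73 cells carried 7018 of the 7597 UMIs of the 3 genes in score-high cells, and 1 cell of mouse 5 held 963 of them.

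The description of these 73 cells has no test, since they were chosen by these genes. A Lalba UMI was in 36 of them and in 394 of the 778 other score-high cells. In pooled counts they also held most UMIs of Pip, a secreted prolactin-induced protein (111 UMIs against 2 in the other cells), of Prol1, a proline-rich lacrimal protein (51 against 3), and of the major urinary protein gene Mup5 (54 against 13), though each was the higher in only 2 or 3 of 7 mice. Aqp5, the water channel of secretory glands, was at 1343 CPM in them and 572 CPM in the other score-high cells, and PYMT at 5343 and 3115 CPM, higher in 7 of 7 mice. S100a6 (119 against 735 CPM) and Mfge8 (89.5 against 480 CPM) were low in them and Csn3 was at 26833 against 28194 CPM in the pooled cells but higher in them in 5 of 7 mice. When all cells with 10 or more UMIs of the 3 genes were left out, Scgb2b27 (0.92, edgeR adjusted p = 0.0119) and Car6 (1.26, adjusted p = 0.000382) were still called, Scgb1b27 was too low to be tested, and 47 genes in all were called. The cells were left out by these same 3 genes, so the values of Scgb2b27 and Car6 are no separate test.

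**Figure D2:**
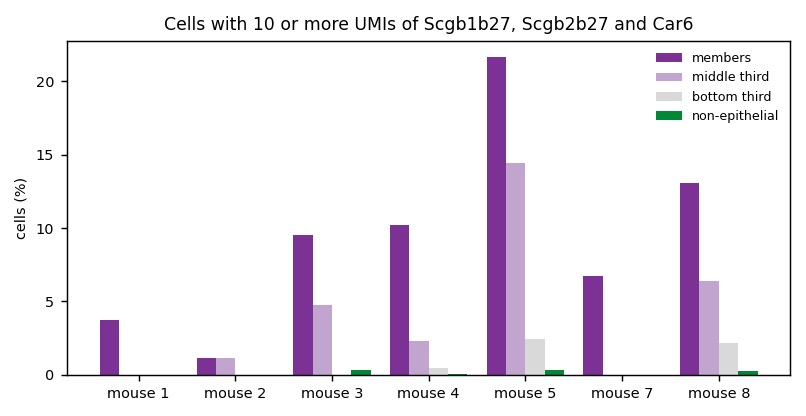
Share of cells (%) with 10 or more UMIs of Scgb1b27, Scgb2b27 and Car6 together, per mouse, in the score-high ("members"), middle-score, low-score and non-epithelial cells. Bars run from 1.18% (mouse 2) to 21.7% (mouse 5) in the score-high cells and reach at most 0.354% in the non-epithelial cells.

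The remaining leading genes that rose were lower in abundance. Arg1 encodes arginase, the urea-cycle enzyme that is also a product of alternatively activated macrophages. It was at 89.5 to 584 CPM in score-high cells (median 274) against 35.8 to 336 CPM (median 91.1), higher in 7 of 7 mice (log2 fold change 1.37, SE 0.18, edgeR adjusted p = 5.67e-06), with 1.38 in the CB and 1.33 in the WT series. The 8 macrophage, monocyte and dendritic markers summed to 54.4 to 353 CPM in score-high cells, 34.8 to 973 CPM in middle-score cells and 10584 to 23713 CPM in non-epithelial cells, with Adgre1 at 0 in both tumor cell groups, and Arg1 in non-epithelial cells was at 12.7 to 164 CPM.

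Kcnn4, a calcium-activated potassium channel, was at 353 to 560 CPM in score-high cells (median 435) and 151 to 354 CPM in middle-score cells (median 203). The ranges met only at mouse 8, the one mouse in which it was not higher (2.0-fold, log2 SE 0.15, edgeR adjusted p = 3.29e-05). Mfsd4a, a transporter of the major facilitator family (1.28, SE 0.30, edgeR adjusted p = 0.0109, 6 of 7 mice), Ncald, the calcium sensor neurocalcin delta (1.20, SE 0.30, adjusted p = 0.0165, 7 of 7), Slc31a2, a copper transporter (1.19, SE 0.28, adjusted p = 0.0109, 6 of 7), and Dhrs7, a short-chain dehydrogenase (0.87, SE 0.23, adjusted p = 0.0313, 7 of 7), complete the 10. Their levels in score-high cells were 21.7 to 283 CPM. Each lost its call without some mouse. These were mice 4 and 7 for Mfsd4a (1.12 and 1.05, edgeR adjusted p = 0.108 and 0.0731), mice 1 and 7 for Ncald (1.28 and 1.22, adjusted p = 0.0573 and 0.0849), mice 5 and 7 for Slc31a2 (1.05 and 1.24, adjusted p = 0.0554 and 0.0521), and mice 1, 3, 5 and 7 for Dhrs7 (0.76 to 0.95, adjusted p = 0.0573 to 0.135). Exons of Mfsd4a are overlapped by Elk4 and Gm26892 on the other strand, and those of Ncald by Gm28221 on the other and Gm49397 on the same strand, so their UMIs are uncertain.

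**Figure D3:**
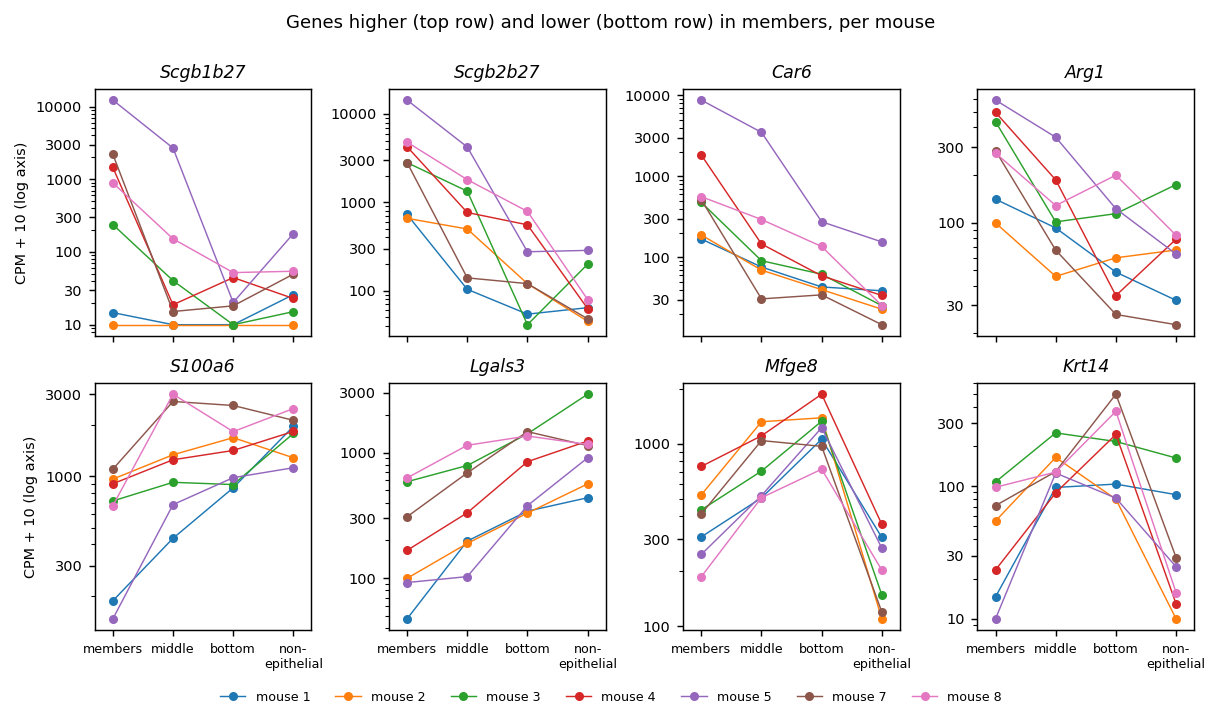
Level (CPM + 10, log axis) of 4 genes that rose and 4 that fell in score-high ("members") against middle-score cells, with the low-score and non-epithelial cells, 1 line per mouse. S100a6, Lgals3, Mfge8 and Krt14 were lower in the score-high cells in 7 of 7 mice, and Scgb2b27, Car6 and Arg1 higher in 7 of 7.

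Under the same limit of 6 of 7 mice, the genes that fell most included a basal keratin, an acute-phase protein and small calcium-binding and heat shock proteins. Krt14, the basal keratin, was at 0 to 97.9 CPM in score-high cells (median 44.8) and 79.3 to 243 CPM in middle-score cells (median 118). It was lower in 7 of 7 mice, with an overlap from mice 3 and 8 (log2 fold change -1.82, SE 0.32, edgeR adjusted p = 0.000584). Only 23 score-high cells had a Krt14 UMI. The 8 myoepithelial markers, of which Krt14 is one, summed to 9.13 to 157 CPM in score-high, 123 to 336 CPM in middle-score and 120 to 559 CPM in low-score cells, and the part of myoepithelial cells in the result was not tested.

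S100a6, a calcium-binding protein of growing and migrating cells, was at 137 to 1088 CPM in score-high cells (median 707) and 424 to 3001 CPM in middle-score cells (median 1237), lower in 7 of 7 mice. The log2 fold change was -1.11 (SE 0.16, edgeR adjusted p = 2.06e-05), with -0.65 in the CB and -1.78 in the WT series. Lgals3, galectin-3, was at 37.3 to 618 CPM (median 156) against 92.7 to 1134 CPM (median 321), lower in 7 of 7 mice (-1.03, SE 0.16, edgeR adjusted p = 7.71e-05), and its level in the low-score cells was above the middle-score cells in all 7. Non-epithelial cells held 1110 to 2473 CPM of S100a6 and 427 to 2912 CPM of Lgals3, and the part of their RNA in the result was not tested.

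Fxyd6, a regulator of the sodium pump (-1.58, SE 0.37, edgeR adjusted p = 0.0118, lower in 6 of 7 mice), Cryab, a small heat shock protein (-1.54, SE 0.26, adjusted p = 0.000293, 6 of 7), and Npy, neuropeptide Y (-1.51, SE 0.21, adjusted p = 1.54e-05, 6 of 7), fell together with Saa2, an acute-phase serum amyloid (-1.39, SE 0.26, adjusted p = 0.000874, 6 of 7). Its relative Saa1 was in the denominator of the score, so the direction of Saa2 is not independent of how the cells were chosen. Anxa3, an annexin (-1.27, SE 0.25, edgeR adjusted p = 0.00226), Cytip, a partner of cytohesin (-1.21, SE 0.29, adjusted p = 0.0113), and Cck, the peptide hormone cholecystokinin (-1.11, SE 0.26, adjusted p = 0.0103), were lower in 7 of 7 mice each. The call of Cck was lost without mouse 1 (-0.96, edgeR adjusted p = 0.0663) or mouse 4 (-1.19, adjusted p = 0.0854). Exons of Cryab are overlapped by Hspb2 on the other strand and those of Anxa3 by Gm42603 on the same strand, so their UMIs are uncertain too. Of the 20 leading genes in both directions, 14 stayed called without each mouse in turn. Of those tested within a title series, 19 of 19 had the same sign in the CB series (14 called) and 16 of 16 in the WT series (7 called).

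**Figure D4:**
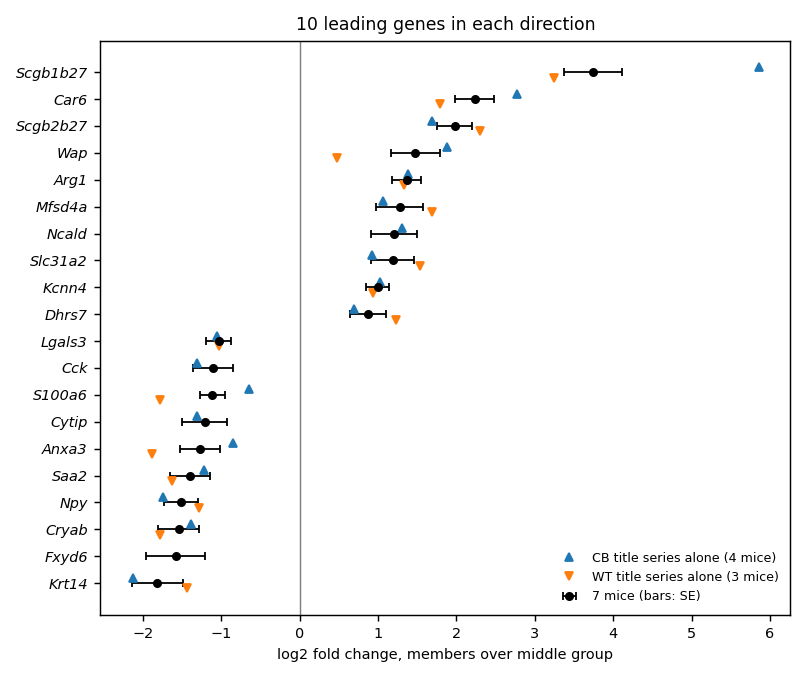
Log2 fold change of score-high over middle-score cells for the 10 genes that rose most and the 10 that fell most among genes called by edgeR and moved the same way in at least 6 of 7 mice. Black points and bars are the value and SE of the fit to 7 mice. Triangles are the CB and WT title series alone where the gene could be tested. For each gene all values lie on the same side of 0, and the CB value of Scgb1b27 rests on 5 UMIs in middle-score cells.

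Among the lists of genes by role, acute phase and defence moved most. Of all genes tested, 1.22% were called higher and 1.25% lower, and the counts of each list are to be read against these shares. Of the 19 tested genes of acute phase and defence none rose and 7 fell (Saa2, Hp, Cxcl1, Cxcl2, Nfkbia, Wfdc2 and Clu), with a median of -0.53. Saa1, Slpi and Chil1, relatives of this list, were in the denominator of the score, so its direction is not independent of how the cells were chosen. Clu, clusterin, a chaperone of injured epithelium, was at 345 to 794 CPM in score-high and 496 to 1035 CPM in middle-score cells, lower in 7 of 7 mice (-0.58, SE 0.12, edgeR adjusted p = 0.0047). Nfkbia, the inhibitor that NF-kappaB induces, was at 527 to 2463 CPM against 661 to 2940 CPM, also lower in 7 of 7 (-0.53, SE 0.12, edgeR adjusted p = 0.00776), though not called without mouse 1 (-0.44, adjusted p = 0.0647) or mouse 4 (-0.46, adjusted p = 0.0767). Cxcl2, a neutrophil chemokine, was lower in 7 of 7 mice, in mouse 2 by little (2026 against 2028 CPM), with -0.88 (SE 0.20, edgeR adjusted p = 0.0096), and was not called without mouse 3 (-0.60, adjusted p = 0.105). Hp, haptoglobin (-1.83, SE 0.43, edgeR adjusted p = 0.0109, lower in 5 and higher in 2 of 7 mice), was not called without mouse 4 (-1.66, adjusted p = 0.107). Wfdc2, a secreted protease inhibitor relative (-1.15, SE 0.28, edgeR adjusted p = 0.0165, also lower in 5 and higher in 2), was not called without mouse 1, 3 or 7 (-0.94 to -1.12, adjusted p = 0.0609 to 0.158), and Cxcl1, another neutrophil chemokine (-0.80, SE 0.22, adjusted p = 0.0344, lower in 6 of 7), was not without mouse 1, 3, 4, 7 or 8 (-0.60 to -0.89, adjusted p = 0.0711 to 0.175).

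Of 13 tested genes listed under stratified and basal epithelium, 3 fell (Krt14, Lgals3 and Krt19) and 1 was called higher (Sprr1a, higher in 4 and lower in 3 of 7 mice), with a median of -0.38. The list also holds luminal keratins, so this median is not a reading of basal genes alone. Krt19, a luminal keratin, gave -0.75 (SE 0.20, edgeR adjusted p = 0.031) and was lower in 6 of 7 mice, but lost its call without any one of mice 1, 2, 3, 5 or 8 (-0.61 to -0.68, adjusted p = 0.0585 to 0.0991). Sprr1a, a cornified envelope gene, had 112 of its 246 UMIs in 1 cell. Its log2 fold change of 1.49 (SE 0.40, edgeR adjusted p = 0.0335) went to 0.56 without mouse 3 (adjusted p = 0.694) and was not called without mouse 4 (1.70, adjusted p = 0.145). Only 16 score-high cells held a Sprr1a UMI.

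Few genes of the sugar and fat side of milk synthesis were called. Of 14 genes of lactose synthesis and sugar supply 4 could be tested and none was called (median 0.30). They were Hk1, a hexokinase, at 0.67 (SE 0.34, edgeR adjusted p = 0.442), Slc2a1, the glucose transporter GLUT1, at 0.35 (SE 0.28, adjusted p = 0.724), Gpi1 at 0.26 (adjusted p = 0.698) and Ugp2 at -0.22 (adjusted p = 0.825). B4galt1, the enzyme that makes lactose, was not among these 4, so the step of lactose synthesis itself was not examined. Of 11 tested glycolysis genes, which exclude Aldoc, 10 had a positive value, against 47.4% of all genes tested, and Ldha rose, with a median of 0.26. Aldoc itself was in the numerator of the score, so the direction of this list may depend on how the cells were chosen. Ldha, lactate dehydrogenase A, was at 884 to 1353 CPM in score-high cells (median 1237) and 655 to 1073 CPM in middle-score cells (median 819), higher in 7 of 7 mice (0.46, SE 0.11, edgeR adjusted p = 0.0157). It was not called without mouse 1 (0.45, adjusted p = 0.0573), mouse 4 (0.42, adjusted p = 0.0973) or mouse 7 (0.44, adjusted p = 0.0964). Aldoa, the other aldolase, was at 0.40 (SE 0.13, edgeR adjusted p = 0.116) and Eno1, enolase, at 0.35 (SE 0.14, adjusted p = 0.29).

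Thrsp, which stimulates fatty acid synthesis in the lactating gland, was the 1 called gene of 10 tested for fatty acids and lipid droplets (median 0.17). It was at 155 to 429 CPM in score-high cells (median 268) and 50.6 to 341 CPM in middle-score cells (median 150), higher in 6 of 7 mice with overlapping ranges (0.85, SE 0.19, edgeR adjusted p = 0.00737), and fell just short without mouse 7 (0.78, adjusted p = 0.0521). Fabp5, a fatty acid carrier (0.49, edgeR adjusted p = 0.224), Srebf1, the regulator of lipid synthesis (0.38, adjusted p = 0.299), and Plin3, a lipid droplet coat protein (0.28, adjusted p = 0.743), did not pass the test.

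From the list of the secretory pathway and the unfolded protein response, 29 genes were tested. Of these, 21 (72.4%) had a positive value, against 47.4% of all genes tested, but only Sec11c rose and the median was 0.07. Xbp1, a regulator of such genes, was in the numerator of the score, so this direction too may depend on how the cells were chosen. Sec11c, a subunit of the signal peptidase, was at 190 to 618 CPM in score-high cells (median 364) against 119 to 325 CPM (median 248), higher in 7 of 7 mice (0.62, SE 0.14, edgeR adjusted p = 0.0096) and not called without mouse 7 (0.57, adjusted p = 0.0714) or without the cells high in secretoglobins (0.43, adjusted p = 0.15). Serp1 (0.45, edgeR adjusted p = 0.0738), Sec61b (0.40, adjusted p = 0.159) and Spcs2 (0.21, adjusted p = 0.627), which belong to the translocon and its signal peptidase, were not called. Of 16 tested mammary transcription factors and genes of prolactin signalling none was called, with a median of -0.0012 and with Elf3 at -0.72 (adjusted p = 0.113), Id1 at -0.77 (adjusted p = 0.406), Kit at -0.40 (adjusted p = 0.586) and Nfib at -0.19 (adjusted p = 0.602).

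**Figure D5:**
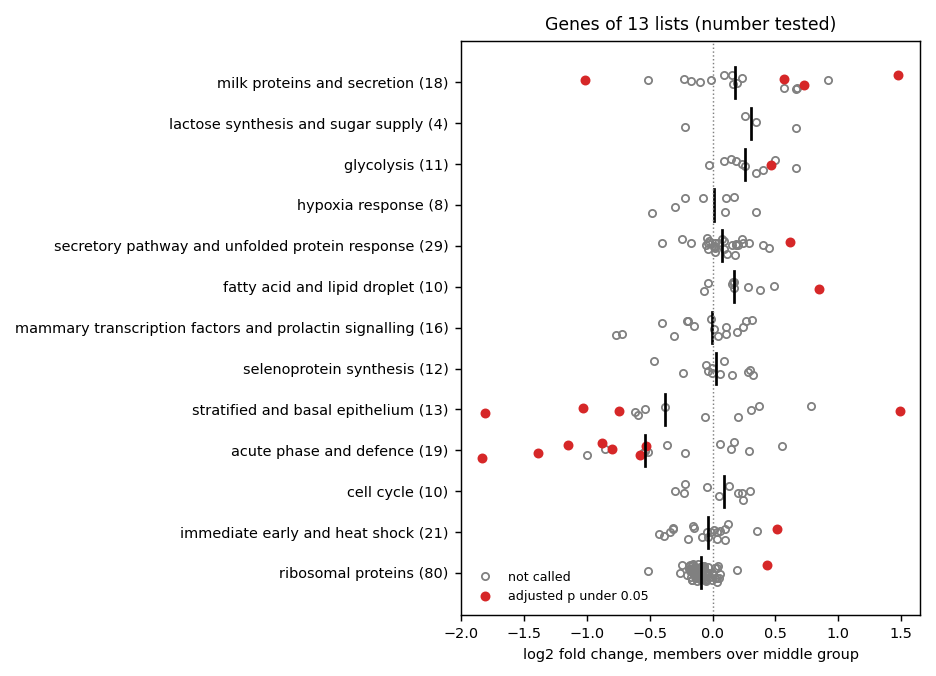
Log2 fold change of score-high over middle-score cells for the tested genes of 13 lists, 1 point per gene, with the median as a vertical line. Red points were called by edgeR (adjusted p under 0.05); 7 of 19 acute phase and defence genes and 3 of 13 stratified and basal genes lie on the lower side, and 3 of 18 milk genes on the higher.

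Other programs showed few calls. Of 8 tested hypoxia genes none was called (median 0.01), with Ndrg1 at -0.48 (edgeR adjusted p = 0.303), Hilpda at -0.30 (adjusted p = 0.743) and Car9 at -0.22 (adjusted p = 0.868). None of 10 cell cycle genes was called (median 0.09), with Cdkn1a, Tubb5, Pcna and Cdkn1b between -0.30 and 0.23 (edgeR adjusted p = 0.622 to 0.743), in cells that had been gated for low Mki67, Top2a, Birc5 and Ube2c. Of 21 immediate early and heat shock genes, which tissue dissociation can induce, Btg2 rose (0.51, SE 0.12, edgeR adjusted p = 0.0146, 7 of 7 mice, but 0.45 and adjusted p = 0.129 without mouse 7), and Ier3 (-0.31, adjusted p = 0.133), Fosb (-0.39, adjusted p = 0.149) and Klf4 (-0.43, adjusted p = 0.208) did not pass, with a median of -0.04. Of 80 ribosomal protein genes, 11 (13.8%) had a positive value, against 47.4% of all genes tested, and the median was -0.09. Only Rps27l, a target of p53, was called, and it rose (0.44, SE 0.11, edgeR adjusted p = 0.0269, 7 of 7 mice), a call lost without any one of mice 1, 2, 4, 7 or 8 (0.37 to 0.47, adjusted p = 0.0519 to 0.165).

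Several abundant genes outside the lists, named after their values were seen, also moved. Tm4sf1, a surface protein of the tetraspanin-like family, was at 620 to 1696 CPM in score-high cells (median 1232) and 1161 to 3260 CPM in middle-score cells (median 1892), lower in 7 of 7 mice (-0.76, SE 0.11, edgeR adjusted p = 3.29e-05). Cst3, the secreted protease inhibitor cystatin C, was at 265 to 1620 CPM (median 750) against 371 to 5082 CPM (median 1562), also lower in 7 of 7 (-1.02, SE 0.16, edgeR adjusted p = 9.32e-05), with -1.27 in the CB and -0.57 in the WT series. In the other direction, Aqp5 was at 315 to 844 CPM (median 641) against 269 to 407 CPM (median 364), higher in all mice but mouse 3 (0.80, SE 0.15, edgeR adjusted p = 0.00172). Cited2, a transcriptional co-regulator, was higher in 7 of 7 mice (0.63, SE 0.15, edgeR adjusted p = 0.0113), and so was Fam213a, a peroxiredoxin-like protein (0.83, SE 0.17, adjusted p = 0.00401). Each of these 5 stayed called without any one mouse.

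Markers of other cell types moved with some calls. The hemoglobin genes Hbb-bs, Hbb-bt, Hba-a1 and Hba-a2 were called higher (log2 fold changes 1.31, 2.04, 1.11 and 1.26, edgeR adjusted p = 0.000879, 5.13e-06, 0.0431 and 0.018), yet in only 3 or 4 of 7 mice, and 1 score-high cell held 317 Hbb-bs UMIs. The erythroid markers summed to 0 to 7819 CPM in score-high, 0 to 6994 CPM in middle-score and 51.1 to 14462 CPM in low-score cells. After cells with 10 or more UMIs of the immune, stromal and erythroid markers were left out, an alternative chosen after the data were seen, the 4 genes gave -0.13, 0.33, -0.33 and -0.00013 and none was called (edgeR adjusted p = 0.866 to 0.999), while 67 genes were called in all. These 4 genes and Col3a1 are themselves among those markers, so their loss follows from how the cells were left out and is no separate test. Cut within depth bins, the 4 genes gave 0.56, 0.66, 0.38 and 0.48 and none was called (edgeR adjusted p = 0.529 to 0.76). Without mouse 1 or mouse 7 the calls of Hba-a1 (0.82 and 0.78, edgeR adjusted p = 0.306 and 0.469) and Hba-a2 (0.83 and 1.08, adjusted p = 0.273 and 0.201) were lost, as was that of Hba-a1 without mouse 4 (1.02, adjusted p = 0.119), and without mouse 8 the 2 genes gave 1.88 and 2.07. Likewise Col3a1, a fibroblast collagen, fell by 2.36 on the log2 scale (SE 0.49, edgeR adjusted p = 0.0047) through the middle-score cells of mouse 8 (2387 CPM against 0 to 27.5 CPM in the other 6 mice), and its value without such cells was -0.68 (adjusted p = 0.766). Without mouse 4 it was -3.22 (edgeR adjusted p = 6.2e-05), and without mouse 8 it was too low to be tested.

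Of the genes the study follows, 12 were looked at here, as RNA only. The paper followed SNAIL, MCL1 and NRF2 mainly as protein and GSK3 by its phosphorylation. Its SNAIL targets Mmp2, Sparc and Tagln were not among the 12. Of the 12 genes, 8 could be tested and none was called between score-high and middle-score cells, with a median of -0.02. Cdh1, E-cadherin, was at -0.16 (SE 0.19, edgeR adjusted p = 0.825), Cldn1, claudin-1, at 0.19 (SE 0.31, adjusted p = 0.884), Dsp, desmoplakin, at -0.29 (SE 0.44, adjusted p = 0.868), Gsk3b at 0.12 (SE 0.21, adjusted p = 0.892), Prkar1a at 0.21 (SE 0.15, adjusted p = 0.675), Mcl1 at -0.18 (SE 0.16, adjusted p = 0.746) and Nfe2l2 at -0.28 (SE 0.27, adjusted p = 0.768). Hk2, Snai1, Vim and Gsk3a held 47, 20, 32 and 23 UMIs in the score-high cells and were too low to be tested. Hk2 was at 18.9 to 91.3 CPM in score-high and 10.1 to 95.4 CPM in middle-score cells.

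Within the score-high cells, those with and without a Lalba UMI are described side by side. No test was made, because Lalba was part of the score and divides the cells. Csn3 was at 35756 CPM in pooled cells with a Lalba UMI and 18918 CPM in those without, higher in 7 of 7 mice. Wap was at 292 and 90.9 CPM (higher in 6 of 7), Folr1 at 409 and 262 CPM (7 of 7) and Pigr at 355 and 244 CPM (6 of 7). In the opposite direction, Arg1 was at 151 CPM with and 526 CPM without a Lalba UMI, lower in 7 of 7 mice, and Car6 at 598 and 2824 CPM, lower in 6 of 7. Secisbp2l was at 542 and 466 CPM, higher with Lalba in 5 of 7. Milk genes did not all go one way, since Mfge8 was at 348 CPM with and 550 CPM without a Lalba UMI, higher with it in 1 of 7 mice, and Thrsp was at 273 and 322 CPM, also higher with it in 1 of 7. The median cell with a Lalba UMI was the deeper in every mouse but mouse 4, and the cells without one include the 23 that held no UMI of any numerator gene.

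Against the non-epithelial cells the score-high cells were set as a reference of cell identity. Of 5767 genes tested, 1037 were higher (18%) and 1700 lower (29.5%) at an edgeR adjusted p under 0.05. Of 18 tested milk genes 17 were higher, with a median log2 fold change of 3.17, among them Folr1 (4.01, SE 0.24, edgeR adjusted p = 9.63e-13), Wap (3.83, SE 0.33, adjusted p = 5.47e-10) and Csn3 (3.47, SE 0.24, adjusted p = 1.54e-11). Of 20 mammary transcription factors and prolactin signalling genes 13 were higher and 4 lower (median 1.64), and of 14 stratified and basal genes 8 were higher and 1 lower (median 1.97). Vim, the mesenchymal filament, was lower by far (-5.83, SE 0.31, edgeR adjusted p = 1.25e-13). The T/NK markers summed to 0 to 170 CPM, the B markers to 0 to 89.5 CPM, the fibroblast markers to 0 to 353 CPM and the endothelial markers to 0 to 33.6 CPM in score-high cells, and all 4 adipocyte markers were at 0. The alveolar luminal markers summed to 35181 to 72410 CPM, 31663 to 69181 CPM and 34417 to 77354 CPM in the score-high, middle-score and low-score cells, ranges that overlapped widely. The hormone-sensing markers summed to 164 to 522 CPM in score-high, 237 to 451 CPM in middle-score and 177 to 483 CPM in low-score cells. In non-epithelial cells they summed to 427 to 1238 CPM. Esr1 was at 0 in the score-high and low-score cells. Prlr and Cited1 of this list were limited by the gate, so its sum in tumor cells is not independent of how the cells were chosen. Neutrophil markers summed to 54.8 to 416 CPM in score-high and 7.7 to 609 CPM in non-epithelial cells, with Csf3r and Cxcr2 at 0 in the former.

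The comparisons rest on edgeR's test with the mouse as block, since both groups come from the same tumor. Without the block edgeR called 0 genes (117 at an unadjusted p under 0.05), and DESeq2 with the block called 30. Since score-high cells were the deeper in 6 of 7 mice, the groups were also cut within 5 bins of depth. That fit called 57 genes, 46 of them among the 71. It ended the calls of Slc31a2 (0.92, edgeR adjusted p = 0.0959), Fxyd6 (-1.29, adjusted p = 0.0543), Pigr (0.61, adjusted p = 0.0514), Ldha (0.34, adjusted p = 0.119), Btg2 (0.43, adjusted p = 0.0959), Krt19 (-0.53, adjusted p = 0.164), Sprr1a (1.15, adjusted p = 0.242) and Cxcl1 (-0.71, adjusted p = 0.0778). Leaving out the secretoglobin-high cells ended those of Mfsd4a (1.28, edgeR adjusted p = 0.0706), Pigr (0.53, adjusted p = 0.0879), Ldha (0.40, adjusted p = 0.0661), Btg2 (0.44, adjusted p = 0.0688), Krt19 (-0.66, adjusted p = 0.0852) and Rps27l (0.40, adjusted p = 0.0653), and left Scgb1b27, Slc31a2 and Ncald too low to be tested. Of the Slc31a2 UMIs in score-high cells, 39 were in the 73 secretoglobin-high cells and 71 in the others (388 against 80.2 CPM, higher in 7 of 7 mice).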

How the data were processed

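Drop-seq libraries of 7 control tumors were analysed. Per the methods, reads were mapped to a mouse mm10 reference extended by PyMT, and the values deposited by the authors are raw UMI counts, 1 matrix of genes by cell barcodes per tumor. The submitters' processing notes name STAR and FastQC, and also list the human builds hg19 and GRCh37.p13, whose role is not given. Mitochondrial genes, present in 2 matrices, were dropped. Cells were read and gated in Python 3.11.15 (numpy 2.4.6, scipy 1.17.1, pandas 2.3.3), ranked by score and then barcode, and summed per mouse and group. The members of each group, the 13 gene lists, the 11 marker lists and the study genes were chosen with earlier results of these data known. So were the label and its markers.

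Sums were compared with edgeR 4.0.16 in R 4.3.3 (TMM, filterByExpr, quasi-likelihood test, mouse as block, Benjamini-Hochberg over all genes tested, threshold 0.05), leaving out the 22 genes of the rule. Each SE is the absolute log2 fold change divided by the square root of the F value of the quasi-likelihood test. Both sums being compared were taken from 1 animal, which pairs them by construction. Each mouse is 1 replicate, and cells of a mouse are not replicates. The fit was tested on simulated data, with a spread between mice that was set and not taken from the data. It called 6 of 93 genes with a simulated log2 change of 0.5 and 56 of 93 with a change of 1. Of 2912 unchanged genes it called 0. Named genes are those of the score, Secisbp2l, the 10 with the largest change in each direction among called genes moved alike in at least 6 of 7 mice, up to 4 of smallest p per list, the caseins, Wap and the study's genes. Other called genes (hemoglobin genes, Col3a1, Hp, Wfdc2, Cxcl1, Tm4sf1, Cst3, Aqp5, Cited2, Fam213a) and the genes of the secretoglobin-high cells were named after their values were seen. Alternatives were DESeq2 1.42.0, no filter, no block, the rule genes kept, groups cut within 5 depth bins, thinning to 300 UMIs, ties left out, at least 400 genes, PYMT of at least 2 UMIs, each title series and each mouse left out. The median depth of a cell limits what a share of cells with a UMI can show. Gene positions are those of GENCODE M21 (GRCm38), and start regions those of RefSeq, where 24 of 30 genes looked for were matched.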

Additional observations from a re-analysis of the deposited data

Results flagged for a closer look

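In 25 of 71 groups of 7 mice looked at, 1 mouse lay apart from the others by Dixon's test at its 95% critical value. For independent, normally distributed values chance would set 1 mouse apart in about 1 in 20 groups. The CPM of many genes here are skewed and the groups share mice, so that rate does not hold for them. Values are CPM, and no explanation was tested.

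Mouse 7 was high in Spp1 (1084 in score-high and 5630 in middle-score cells), Cp (2253 and 4977), Npy (379 and 912), Csn3 (44834 and 41444) and, in score-high cells, Fxyd6 (94.6), and its lowest score of a score-high cell (-1.32) lay below those of the other mice. Mouse 5 was high in Scgb1b27 (12275 and 2678), Car6 (8752 and 3489) and Scgb2b27 (14364 and 4220), and in Wap in the middle-score cells (243). Mouse 2 was high in Csn2 (1030 and 561) and Csn1s2a (470 and 250). Mouse 4 was high in Cck (116 and 216). Mouse 1 was high in Lalba in score-high cells (6745), and mouse 3 in Csn1s1 in middle-score cells (2905).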

How the results depend on the processing

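Over 7 mice, 71 genes were called between score-high and middle-score cells. DESeq2 called 30, the fit without the mouse as replicate block 0, cells thinned to 300 UMIs 8 (9 in a second draw added after the data were seen), PYMT of at least 2 UMIs 25, the CB series 44 and the WT series 15. Without secretoglobin-high cells, also added later, 47 were called. Leaving out 1 mouse gave 34 (without mouse 7) to 65 (without mouse 2). Against non-epithelial cells 2737 were called, 4308 with no filter on low counts and 1765 in the CB series. Thinning left 603 genes to test, the WT series 2228.

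Of the 20 leading genes, DESeq2 called 11, the fit without the block 0, thinning 4 and 3, PYMT of at least 2 UMIs 11 and the WT series 7. The log2 fold change of Secisbp2l, 0.60, was no longer called with DESeq2 (0.61), without the block (0.56), after thinning (0.42 and 0.60), with PYMT of at least 2 UMIs (0.52) or in the WT series (0.44), and leaving out 1 mouse gave 0.51 to 0.65. Over all alternatives its adjusted p, by edgeR or DESeq2, ran from 0.00785 (without cells high in other markers) to 0.999.

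In 8 cases a gene called over 7 mice changed sign. Thinning gave Ezr 0.0064 and Tagln2 0.041. Hba-a1 gave -0.25 in the second thinned draw, -0.019 with at least 400 genes per cell and -0.33 without cells high in other markers, where Hba-a2 gave -0.00013 and Hbb-bs -0.13, and Hba-a2 gave -0.024 with at least 400 genes. The cause was not tested. Of the values of single genes with a test under the alternatives, 913 kept their side of the threshold, 550 kept the direction and lost the call and 2 gained it, both of Csn2 (1.31 in the CB series, 2.45 with tied cells left out). Among the 913 are 11 uncalled values of another sign, in Csn1s1 (8, range -0.75 to 0.63), Csn2 (2, range -0.98 to 2.45) and Csn1s2a (1, range -0.17 to 1.05). With 7 mice, 740.5 to 1231.5 UMIs in the median score-high cell of a mouse and many genes seen in few cells, a gene that was too low to be tested or not called is not shown to be alike in both groups.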
